A study of Mus musculus with 20 samples.

Results

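The genes described here encode the subunits of mitochondrial oxidative phosphorylation, measured by 1-colour microarray in mouse intestinal tissue. They were chosen by a name rule, with earlier results of these data known. The rule took every gene whose name in the array files begins with Nduf followed by a, b, c, s or v and a digit. It also took Sdha, Sdhb, Sdhc and Sdhd, and names beginning with Uqcr, with Cox and a digit from 4 to 8, or with Atp5. This rule gave 85 of the 25041 genes named on the array, read by 131 of its 56605 probes, and 84 of the 85 were measured well above background on enough arrays to be tested. Of the 85 genes, 35 belonged to complex I, 4 to complex II, 8 to complex III, 18 to complex IV and 15 to complex V. The other 5 (Atp5c1-ps, Atp5s, Atp5sl, Cox7a2l and Ndufa4l2) carry the names without being subunits of these complexes and were counted apart.

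The labels give each C57BL6/j array its own animal, so arrays are the replicates. The 6 Cre control mice carried VillinCreER/0 alone, and the 6 BRAFV600E mice carried VillinCreER/0 together with BrafV600E-LSL/+, an allele that is silent until Cre removes its stop cassette. Both groups were 8 to 12 weeks old, received 3 daily doses of 2 mg tamoxifen, and were sampled 3 days after the last dose, so the controls shared both the recombinase and the drug. The 4 MEKi and 4 Vehicle mice received tamoxifen on 2 consecutive days and then, on 3 consecutive days, the MEK inhibitor PD184352 or its vehicle, 10% DMSO with 10% Cremophor EL. The labels give no genotype for these 8 animals, and the study's figure legends describe them as BrafV600E mice, so this comparison asks what MEK inhibition changed on top of the oncogene. The Villin promoter drives Cre in the gut epithelium, whereas the RNA came from intestinal tissue that also holds muscle, stroma, immune cells and fat.

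Complex I (NADH dehydrogenase) and complex II (succinate dehydrogenase) pass electrons from the products of the TCA cycle to ubiquinone, complex III passes them to cytochrome c, complex IV (cytochrome c oxidase) hands them to oxygen, and complex V (ATP synthase) uses the proton gradient built on the way to make ATP. Most subunits are encoded in the nucleus and expressed in nearly every cell, while a few core subunits come from mitochondrial DNA. Complex IV differs from the others in having subunit pairs with a widely expressed form and a form typical of heart and skeletal muscle or brown fat (Cox6a1 and Cox6a2, Cox7a2 and Cox7a1, Cox8a and Cox8b), as well as forms typical of testis (Cox6b2, Cox7b2, Cox8c) or lung (Cox4i2).

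The sequences just before the start sites of these isoform genes are shown because both calls reported below fell on the muscle-type side of these pairs. Promoters from RefSeq (GRCm38.p6) could be matched to 66 of the 80 subunit genes, as 71 start sites, and Cox6a2 had no match. In the 250 bases before the start, the subunit genes held a median of 14 CpG dinucleotides, against 6 over all 32851 promoters of the table. Cox8b held 1 CpG (chr7:140900447-140900696, minus strand) and its partner Cox8a held 11 (chr19:7217617-7217866, minus strand). Cox7a1 held 4 (chr7:30183921-30184170, plus strand), its partner Cox7a2 held 14 (chr9:79759854-79760103, minus strand), and Cox6a1 held 26 (chr5:115348959-115349208, minus strand). Each sequence runs 5′ to 3′ and ends at the base before the start site, with CpG dinucleotides in capitals.
Cox8b: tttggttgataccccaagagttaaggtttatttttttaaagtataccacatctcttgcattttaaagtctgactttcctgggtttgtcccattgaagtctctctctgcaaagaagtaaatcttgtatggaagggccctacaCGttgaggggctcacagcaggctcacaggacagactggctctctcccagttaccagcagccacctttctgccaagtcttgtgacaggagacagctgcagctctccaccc
Cox8a: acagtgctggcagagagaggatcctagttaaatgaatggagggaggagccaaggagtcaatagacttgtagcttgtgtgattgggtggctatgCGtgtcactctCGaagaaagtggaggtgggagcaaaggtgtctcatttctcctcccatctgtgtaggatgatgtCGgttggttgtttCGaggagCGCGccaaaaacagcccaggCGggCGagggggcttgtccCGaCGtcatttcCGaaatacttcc
Cox7a1: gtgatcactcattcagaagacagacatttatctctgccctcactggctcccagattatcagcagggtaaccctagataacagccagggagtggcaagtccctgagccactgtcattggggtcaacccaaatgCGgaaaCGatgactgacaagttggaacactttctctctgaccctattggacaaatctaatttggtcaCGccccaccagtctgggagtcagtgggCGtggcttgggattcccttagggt
Cox7a2: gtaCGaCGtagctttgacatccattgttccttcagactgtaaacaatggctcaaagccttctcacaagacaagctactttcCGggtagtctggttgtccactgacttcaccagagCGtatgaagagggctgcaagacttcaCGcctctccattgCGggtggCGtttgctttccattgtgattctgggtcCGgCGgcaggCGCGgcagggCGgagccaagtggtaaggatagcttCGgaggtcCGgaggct
Cox6a1: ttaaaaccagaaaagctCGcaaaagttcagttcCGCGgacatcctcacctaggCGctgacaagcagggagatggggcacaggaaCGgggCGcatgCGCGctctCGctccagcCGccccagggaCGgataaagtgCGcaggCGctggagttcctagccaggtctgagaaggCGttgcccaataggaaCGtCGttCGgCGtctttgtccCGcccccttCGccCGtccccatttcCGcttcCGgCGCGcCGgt
The letters GCATGCGC, the core of the site bound by NRF1, a regulator of nuclear genes for respiration, were found on either strand in 11.3% of the 71 subunit promoters and in 2.26% of all promoters, and the 2 matches in Cox6a1 overlap each other. The ETS-type letters ACTTCCGG were found on either strand in 4.23% of subunit promoters and 2.88% of all, and TATAAA on the coding strand in 2.82% and 7.59%. None of these letters lay before the start of Cox8b, Cox8a, Cox7a1 or Cox7a2, which says nothing about which factors act there.

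Levels are given as log2 signal minus the 75th percentile of the same array, so a level of 0 equals that percentile and a difference of 1 is a 2-fold change. The 75th percentile itself ranged from 525 to 1518 signal units over the 20 arrays, and 60.8% to 76.8% of spots were well above background. This percentile differed between groups, at 525 to 1238 on Cre control arrays and 852 to 1518 on BRAFV600E arrays. Only Cre control replicate 4, at 1238, lay above the lowest BRAFV600E array. Slide 1 carried every Cre control array together with 2 of the BRAFV600E arrays (replicates 1 and 2), and slide 2 carried only the remaining 4, on which the spike-in dose response had a slope of 0 against 0.759 to 1.08 on all other arrays. MEKi and Vehicle shared slide 3, one row each, so row and treatment cannot be told apart. Y-linked signal was high on 3 Cre control, 4 BRAFV600E, 2 Vehicle and all 4 MEKi arrays, so this signal was not balanced between MEKi and Vehicle. All 12 enterocyte markers, among them Vil1, Fabp1 and Sis, were well above background on every array.

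The comparison of BRAFV600E with Cre control asked whether subunit expression had changed within days of switching on the oncogene. Few subunits passed the test. Of the 84 genes tested, 2 fell and 0 rose at an adjusted p below 0.05 (limma, adjusted over all genes tested), against 12.5% of the 19039 genes tested that changed in either direction and 6.26% that fell. The 2 that fell were Cox8b and Cox6a2, both muscle-type isoforms of complex IV. At an unadjusted p below 0.05, 7 of the 84 (8.33%) were lower and 1 (1.19%) was higher, against 15.2% and 15.0% of all genes tested. The median log2 fold change was -0.10 over the 84 genes and -0.02 over all genes tested. Below 0 were 57 of the 84 (67.9%), against 51.6% of all genes tested. For 78 of the 84 the 95% interval lay within a 2-fold change in either direction, and for 25 within 0.5 on the log2 scale. In whole tissue, fewer cells of a type and less RNA per cell cannot be told apart, which applies to every value below.

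**Figure D1:**
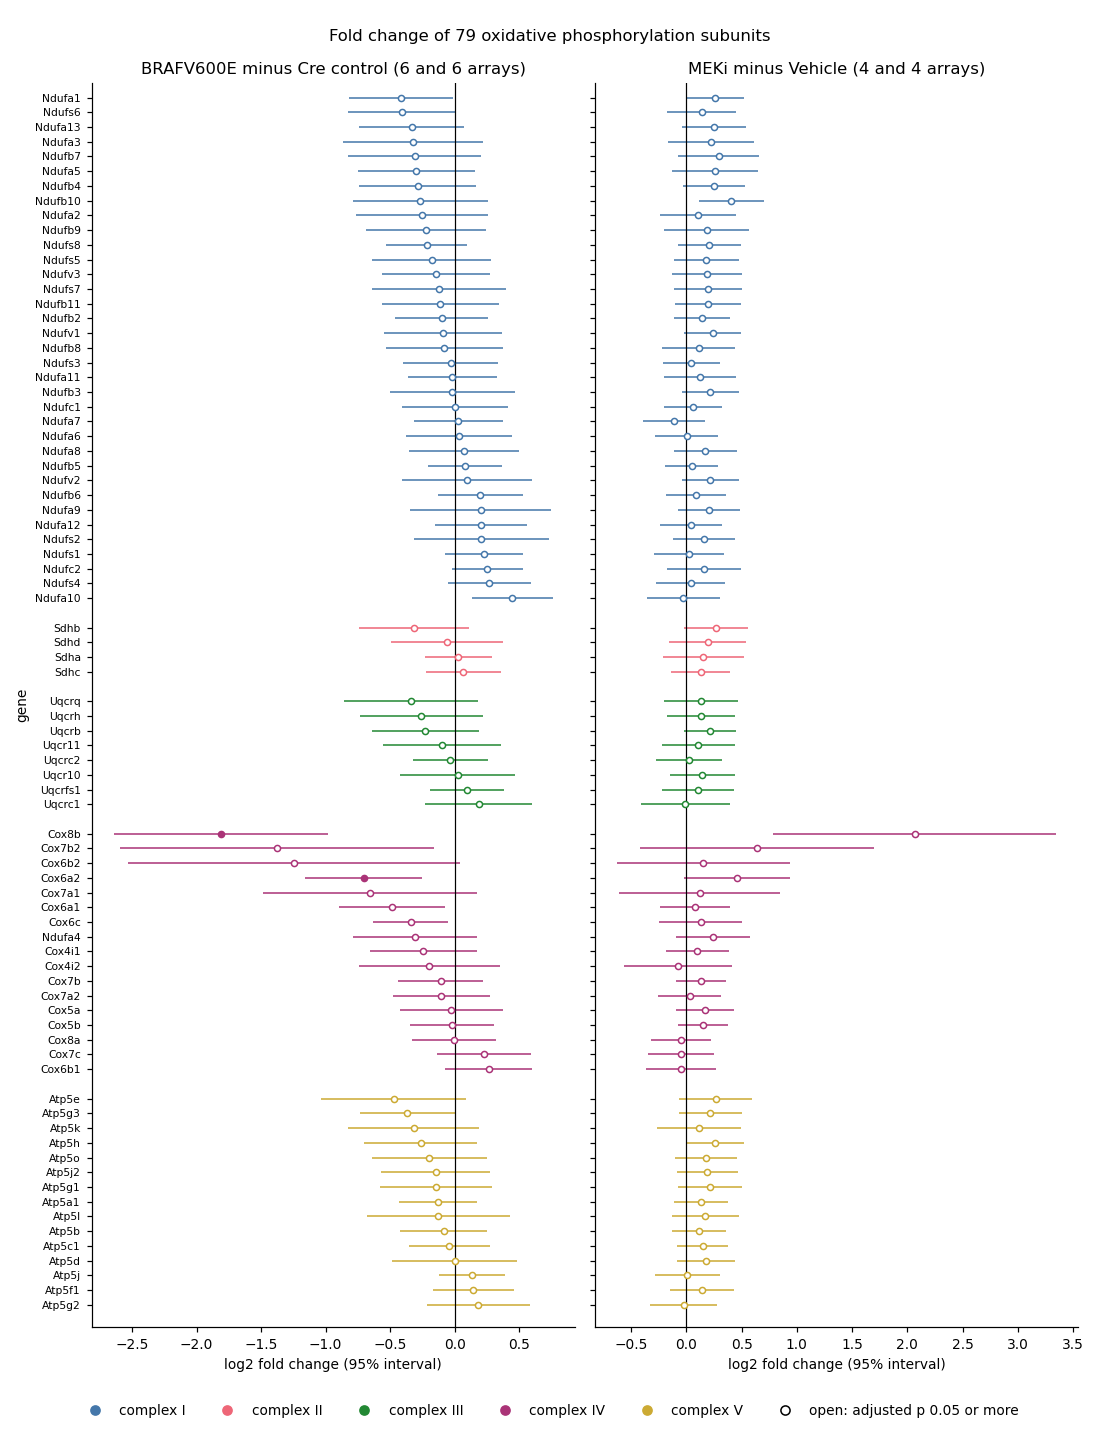
Log2 fold change with its 95% interval (horizontal axis) for each of 79 tested subunits (vertical axis, ordered within complex), for BRAFV600E minus Cre control (left, 6 and 6 arrays) and MEKi minus Vehicle (right, 4 and 4 arrays). Filled points have an adjusted p below 0.05, which only Cox8b and Cox6a2 reach, both on the left. Most intervals cross 0, and the widest belong to isoforms of complex IV.

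Complex I showed no call among its 35 subunits, with log2 fold changes from -0.42 for Ndufa1 to 0.45 for Ndufa10 and a median of -0.08. Ndufa10, an accessory subunit of the membrane arm, measured 4.47, 4.16, 3.65, 4.49, 4.13 and 4.28 in Cre control and 4.60, 4.55, 4.69, 4.61, 4.65 and 4.75 in BRAFV600E. Every BRAFV600E array lay above every control array, yet the difference of 0.45 (SE 0.14) missed the threshold with an adjusted p of 0.0604 in limma. Ndufa10 stayed above 0 in all 24 alternatives of the processing and was called higher in 7. Of the 12 fits that each left out 1 array, 2 called it. Only Ndufa10 and Cox8b had groups that did not overlap, 2 of 84 genes (2.38%), against 7.36% of all genes tested. The 2 further probes for Ndufa10 gave differences of 0.54 and 0.12. Ndufa1, an X-linked subunit needed for assembly of the membrane arm, measured 5.51 to 6.27 in Cre control and 5.07 to 6.03 in BRAFV600E, a difference of -0.42 (SE 0.19, adjusted p = 0.152, limma) with overlapping groups.

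Complex II also had no call. Its 4 subunits ranged from -0.31 (SE 0.20, limma adjusted p = 0.302) for Sdhb, the iron-sulphur subunit, to 0.07 (SE 0.13, limma adjusted p = 0.784) for Sdhc, a membrane anchor. A further probe for Sdhb gave 0.08. In complex III the 8 subunits ranged from -0.34 (SE 0.24) for Uqcrq, a small ubiquinone-binding subunit, to 0.19 (SE 0.19) for Uqcrc1, a core protein, with limma adjusted p of 0.366 and 0.556. Complex V held 15 subunits with no call, from -0.47 (SE 0.26) for Atp5e, the epsilon subunit, to 0.18 (SE 0.18) for Atp5g2, with limma adjusted p of 0.242 and 0.542. The 3 genes for the identical mature c subunit of the rotor did not share a sign, with -0.15 for Atp5g1, 0.18 for Atp5g2 and -0.37 for Atp5g3, and none passed the test. Further probes gave -0.28 and 0.01 for Atp5g1 and 0.23 for Atp5g3, so the signs depended on the probe. The medians of complexes II, III and V were -0.01, -0.07 and -0.13.

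Complex IV held both calls and the lowest median, -0.24 over 17 tested subunits, of which 15 were below 0. Cox8b, the muscle and brown fat form of the smallest subunit, was read by a probe at chr7:148084852-148084911 (mm9, as the array files give it). Its levels were -3.45, -2.41, -2.91, -2.30, -3.47 and -3.06 in Cre control. In BRAFV600E they were -4.41, -4.54, -3.85, -5.26, -6.30 and -4.14, with the arrays at -5.26 and -6.30 not well above background. The groups did not overlap, and the fall was 3.52-fold (log2 fold change -1.81, SE 0.38, adjusted p = 0.0111, limma). All 6 Cre control arrays and 4 of the 6 BRAFV600E arrays measured it well above background, so the size of the fall includes 2 arrays at background, and Cox8b was not tested where every array had to be well above background. The widely expressed partner Cox8a stayed within 7.28 to 7.79 in Cre control and 7.23 to 7.87 in BRAFV600E, with a log2 fold change of -0.01 and a 95% interval from -0.33 to 0.32.

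Cox6a2, the heart and skeletal muscle form of subunit VIa (probe at chr7:135349160-135349219, mm9), measured -2.51, -1.77, -1.89, -2.38, -2.24 and -2.03 in Cre control. In BRAFV600E it measured -2.59, -3.66, -2.65, -2.44, -2.73 and -3.00, so that only the highest BRAFV600E array, at -2.44, reached into the control range. The fall was 1.63-fold (log2 fold change -0.71, SE 0.21, adjusted p = 0.0459, limma), close to the threshold. It kept its call in 3 of the 12 fits that each left out 1 array, and Cox8b kept its call in all 12. Over all 24 alternatives, Cox6a2 was called in 8. Without scaling between arrays, which moved the median of all genes to 0.79 on the log2 scale and that of the 84 genes to 0.71, Cox6a2 stood at 0.10 and Cox8b at -1.01 (adjusted p = 0.0852, limma). Its partner Cox6a1, the liver-type form found in most tissues, measured 8.15 to 9.02 in Cre control and 7.86 to 8.84 in BRAFV600E. The difference for Cox6a1 was -0.49 (SE 0.19) and did not pass the test (adjusted p = 0.107, limma), so the members of this pair were not shown to differ. The sign for Cox6a1 depended on the scaling, at 0.17 with quantile normalization and 0.32 without scaling. Cox6a1 was called lower in 4 of the 24 alternatives.

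Cox7a1, the muscle-type partner of Cox7a2 (probe at chr7:30970337-30970948, mm9), had levels of 6.10, 6.36, 6.60, 6.02, 6.75 and 6.29 in Cre control. In BRAFV600E it measured 5.21 and 3.92 on the arrays of slide 1 and 6.41, 5.87, 6.28 and 6.47 on slide 2, so both slide 1 arrays and the slide 2 array at 5.87 lay below all controls, and the other slide 2 arrays lay among them. Over all 12 arrays its log2 fold change was -0.66 (SE 0.38, adjusted p = 0.268, limma). Cox7a2 differed by -0.10, with a 95% interval from -0.48 to 0.27.

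**Figure D2:**
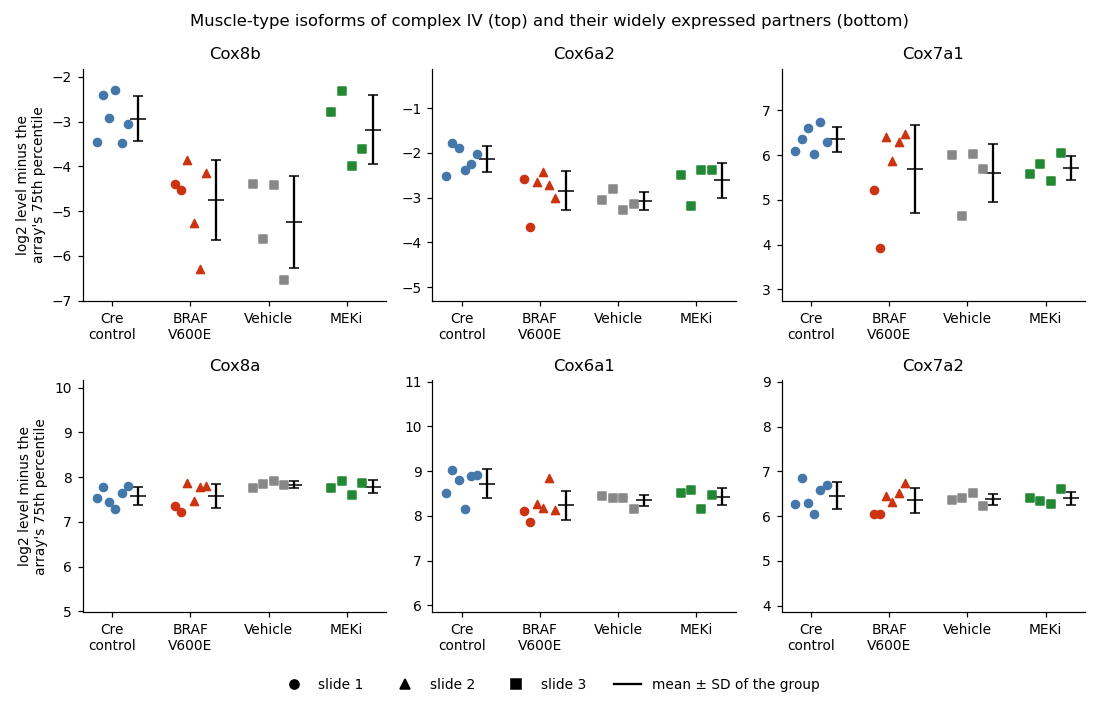
Log2 level minus the array's 75th percentile (vertical axis, its position differing between panels) for each array of the 4 groups (horizontal axis), for Cox8b, Cox6a2 and Cox7a1 (top) and their partners Cox8a, Cox6a1 and Cox7a2 (bottom). Circles are slide 1, triangles slide 2 and squares slide 3, and bars are the group mean ± SD. Cox8b shows no overlap between the groups of either comparison, while Cox8a stays between 7.23 and 7.92 on all 20 arrays. For Cox8b, some BRAFV600E arrays and most Vehicle arrays were not well above background, and its MEKi difference was not called.

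The testis-type isoforms varied widely between animals. Cox6b2 ranged from -0.51 to 2.97 in Cre control and from -0.96 to 1.06 in BRAFV600E, a difference of -1.24 (SE 0.59, adjusted p = 0.18, limma) with broad overlap, while Cox6b1, its widely expressed partner, differed by 0.26 (SE 0.15). Cox7b2 ranged from -0.41 to 2.40 and from -2.38 to 0.62, a difference of -1.37 (SE 0.56, adjusted p = 0.122, limma). Cox8c was not well above background on any array and was not tested. Cox4i2, the lung-type form whose expression responds to oxygen, differed by -0.20 (SE 0.25) and Cox4i1 by -0.24 (SE 0.19). Ndufa4, once placed in complex I and now known as a complex IV subunit, differed by -0.31 (SE 0.22), while its relative Ndufa4l2, a hypoxia-induced protein, differed by 0.28 (SE 0.15). None of these passed the test. Cox7a2l, which has been linked to supercomplexes of complexes III and IV, differed by -0.06 (SE 0.24) with BRAFV600E replicate 3 dropped because its spot was marked as an outlier.

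The BRAFV600E arrays differed between slides. The median level of 79 subunits was 5.76, 6.27, 5.99, 5.62, 6.21 and 6.07 on the Cre control arrays. It was 5.58 and 5.37 on the BRAFV600E arrays of slide 1, both below all controls, and 5.93, 5.87, 6.12 and 6.30 on those of slide 2. Within slide 1 (6 controls and 2 BRAFV600E arrays) the median log2 fold change of the 84 genes was therefore -0.47, against -0.06 over all genes. Below 0 there were 76 of the 84 (90.5%), against 54.2% of all genes tested. Only Cox7a1 was called there (log2 fold change -1.79, adjusted p = 0.0295, limma), against 3.86% of all genes tested. With slide as a block the fold changes are the same by construction, since slide 2 holds 1 group. The block called Cox7a1 (adjusted p = 0.0063) and Ndufa1 (-0.80, adjusted p = 0.0491), against 8.06% of all genes, and 37 of the 84 (44%) were lower at an unadjusted p below 0.05, against 16.1% of all genes. Under the block, Cox8b at -1.54 (adjusted p = 0.108) and Cox6a2 at -0.99 (adjusted p = 0.0554) were no longer called. Of the 4 complexes other than IV, the medians within slide 1 were -0.46 for I, -0.42 for II, -0.44 for III and -0.57 for V, beside -0.61 for IV.

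**Figure D3:**
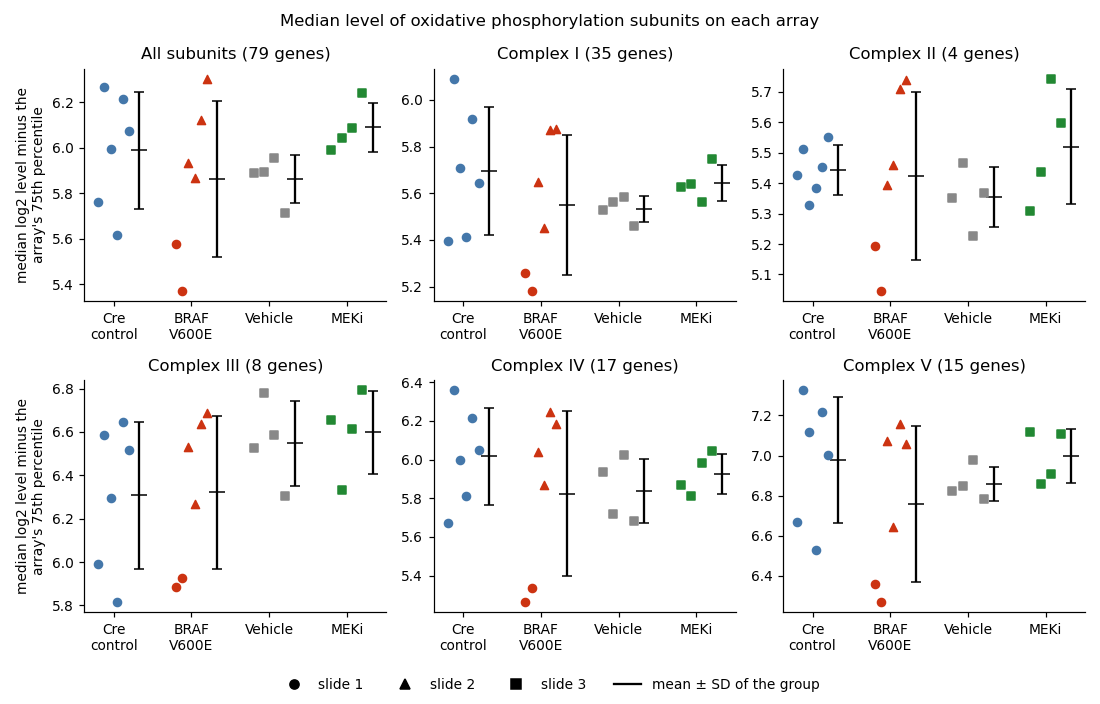
Median log2 level of the tested subunits minus the array's 75th percentile (vertical axis, its range differing between panels) for each array of the 4 groups (horizontal axis), over all subunits and by complex. Marker shape gives the slide and bars the group mean ± SD. The 2 BRAFV600E arrays of slide 1 lie at 5.58 and 5.37 over all subunits, below the 4 of slide 2 and below every Cre control array.

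The subunit median was also set beside each array's overall signal. Among the 6 Cre control arrays, the subunit median fell with the log2 75th percentile (Pearson r = -0.91, exact permutation p = 0.0111; Spearman rho = -0.77, exact permutation p = 0.103). Adjusted over the 2 groups examined, these p-values were 0.0222 and 0.206. Without the 2 arrays farthest from the median percentile r was -0.38, so the relation rests on those arrays, and since the percentile is subtracted to form the level, the 2 quantities are not independent. Among the 6 BRAFV600E arrays r was -0.24 (exact permutation p = 0.639) and rho -0.43 (exact permutation p = 0.419), with r at 0.0028 without the 2 farthest arrays. The part of array signal in the low slide 1 values was not tested.

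**Figure D4:**
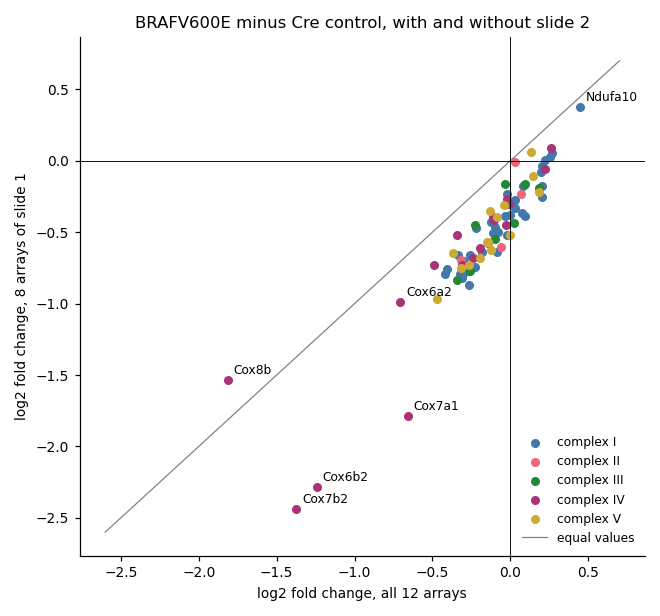
Log2 fold change of each tested subunit for BRAFV600E minus Cre control over all 12 arrays (horizontal axis) and over the 8 arrays of slide 1 (vertical axis), coloured by complex, with the line of equal values. Almost all points lie below the line, with a median of -0.47 on slide 1 for the 84 genes, and Cox8b lies above it at -1.54 against -1.81.

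MEK inhibition was compared with vehicle to ask whether blocking the pathway downstream of BRAF moved the same genes. No subunit passed the test: 0 of 84 genes were called by limma, against 1.98% of the 19230 genes tested, and 3 (3.57%) were higher and 0 lower at an unadjusted p below 0.05, against 9.12% and 7.25% of all genes tested. The shift was small and even across complexes, with medians of 0.17 in complex I, 0.17 in II, 0.12 in III, 0.13 in IV and 0.17 in V. The median of the 84 genes was 0.15, against 0.04 over all genes tested. Above 0 were 75 of the 84, against 10508 of the 19230 genes tested. The MEKi arrays did not overlap the Vehicle arrays for 12 of 84 genes (14.3%), all higher in MEKi, against 12.2% of all genes tested. For 58 of the 84 the 95% interval lay within 0.5 on the log2 scale. The median level of the 79 subunits was 5.99, 6.04, 6.09 and 6.24 in MEKi and 5.89, 5.89, 5.96 and 5.71 in Vehicle, so these groups did not overlap but lay close together.

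Cox8b measured -2.79, -2.32, -3.98 and -3.62 in MEKi, well above background on all 4 arrays. In Vehicle it measured -4.40, -5.62, -4.41 and -6.53, well above background only on the array at -4.40. Cox8b thus met the filter through the MEKi group, and a difference from a group mostly at background has no firm size. The groups did not overlap, and the fitted log2 difference of 2.06 (SE 0.56) did not pass the test (adjusted p = 0.118, limma). Cox8a differed by -0.05 (95% interval -0.32 to 0.22). Cox6a2 differed by 0.46 (SE 0.21, adjusted p = 0.33, limma), with MEKi replicate 2 at -3.19 among the Vehicle arrays and the other MEKi arrays at -2.50 to -2.37 above them. Cox7a1 differed by 0.12 (SE 0.32) and Cox4i2 by -0.08 (SE 0.21), the lowest of complex IV.

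In complex I, Ndufb10, an accessory subunit of the membrane arm, was highest at 0.41 (SE 0.13, adjusted p = 0.165, limma), with MEKi arrays at 6.43, 6.19, 6.28 and 6.52 above Vehicle arrays at 5.96, 6.04, 6.02 and 5.77. Ndufa7 was lowest at -0.11 (SE 0.12). Sdhb at 0.27 (SE 0.13) and Sdhc at 0.13 (SE 0.12) bounded complex II, Uqcrb at 0.21 (SE 0.10) and Uqcrc1 at -0.01 (SE 0.18) complex III, and Atp5e at 0.27 (SE 0.14) and Atp5g2 at -0.03 (SE 0.13) complex V. None of these passed the test. Among the genes that are no subunits, Atp5sl, a complex I assembly factor under its older name, differed by 0.47 (SE 0.13, adjusted p = 0.124, limma) and Ndufa4l2 by -0.50 (SE 0.32, adjusted p = 0.503, limma).

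The lists of related genes set these values beside the rest of the organelle. Over all 19039 genes tested in BRAFV600E, 1179 were called higher and 1192 (6.26%) lower, the background for counts in these lists and the marker lists below. Subunits encoded by mitochondrial DNA could be read for 11 of 13 genes. In BRAFV600E, 2 of them fell and 0 rose: mt-Co2, the copper-binding subunit II of complex IV, by 0.63 on the log2 scale (SE 0.19, adjusted p = 0.0491, limma) and mt-Nd3, a membrane subunit of complex I, by 0.41 (SE 0.12, adjusted p = 0.0452, limma). They kept their calls in 2 and 1 of the 12 fits that left out 1 array, and without scaling both lay above 0. The list's median was -0.14 over all arrays and 0.51 within slide 1, where neither gene was called. Of 8 further nuclear subunits and electron carriers, only Coq7, an enzyme of ubiquinone synthesis, was called (0.40, SE 0.12, adjusted p = 0.0495, limma). It kept its call in 1 of 12 fits that left out 1 array and was not called within slide 1 (0.23, adjusted p = 0.421, limma), and the list's median was -0.13. As a mean over its probes Coq7 stood at 0.25 (adjusted p = 0.144, limma).

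Most assembly and import genes had values above 0, against 9218 of all 19039 genes tested. Of 14 complex I assembly factors 1 rose and 0 fell, with a median of 0.27. The riser was Nubpl, which inserts iron-sulphur clusters (0.56, SE 0.12, adjusted p = 0.0143, limma). As a mean over its probes Nubpl stood at 0.33 (adjusted p = 0.274), and it was not called with normexp background correction (adjusted p = 0.0752, both limma). Of 31 assembly factors for complexes II to V 1 rose, Coa5 for complex IV (0.70, SE 0.17, adjusted p = 0.0188, limma), with a median of 0.17. Among 15 genes of mitochondrial mass and import 4 rose, 0 fell and all 15 were above 0. Ucp2, an inner membrane carrier, rose 2.50-fold (log2 fold change 1.32, SE 0.22, adjusted p = 0.0028, limma), from 1.25 to 2.20 in Cre control to 2.49 to 3.64 in BRAFV600E with no overlap. The chaperonin Hspd1 rose by 0.79 (SE 0.19, adjusted p = 0.0219), and the import channel proteins Tomm40 by 0.70 (SE 0.15, adjusted p = 0.0137) and Timm23 by 0.45 (SE 0.13, adjusted p = 0.0419, all limma). Within slide 1 none of Nubpl, Coa5, Ucp2, Hspd1, Tomm40 or Timm23 was called, with log2 fold changes from 0.34 to 1.41, and Timm23 kept its call in 3 of 12 fits that left out 1 array. As a mean over its probes Timm23 stood at 0.31 (adjusted p = 0.0951, limma). The medians of these 3 lists within slide 1 were 0.08, -0.01 and 0.10, with 10 of the 15 mass and import genes above 0.

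Regulators of mitochondrial biogenesis moved in both directions, 2 higher and 1 lower of 17. Ppargc1a, the coactivator PGC-1 alpha that promotes expression of respiratory genes, measured 3.08, 2.92, 2.49, 2.70, 2.99 and 2.96 in Cre control and 1.83, 1.80, 2.15, 2.33, 2.46 and 2.21 in BRAFV600E. The groups did not overlap, and the fall was 1.65-fold (log2 fold change -0.73, SE 0.15, adjusted p = 0.0113, limma). It was also called within slide 1 (-1.04, adjusted p = 0.0288, limma), while without scaling it stood at 0.08. In MEKi it measured 2.67, 2.63, 2.53 and 2.80 against 2.06, 2.14, 1.53 and 2.22 in Vehicle, a difference of 0.67 (SE 0.17) without overlap that missed the threshold (adjusted p = 0.102, limma). Myc rose by 0.94 (SE 0.28, adjusted p = 0.0488, limma), keeping its call in 2 of 12 fits that left out 1 array, and Ssbp1, which coats single-stranded mitochondrial DNA, rose by 0.51 (SE 0.11, adjusted p = 0.0141, limma), or stood at -0.09 as a mean over its probes. Myc stood at 0.39 as a mean over its probes (adjusted p = 0.196, limma). Of 17 TCA cycle enzymes 1 was called, Sucla2, a succinyl-CoA ligase subunit, which fell by 0.53 (SE 0.14, adjusted p = 0.0275, limma) and stood at 0.28 without scaling. It kept its call in 8 of 12 fits that left out 1 array, and stood at -0.43 as a mean over its probes (adjusted p = 0.107, limma). Within slide 1 limma called none of Myc (adjusted p = 0.174), Ssbp1 (adjusted p = 0.104) and Sucla2 (adjusted p = 0.161). In MEKi limma called 0 of the 113 genes of these 7 lists, against 1.98% of all genes tested. At an unadjusted p below 0.05, 4 were higher and 4 lower, against 9.12% and 7.25% of all genes tested.

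**Figure D5:**
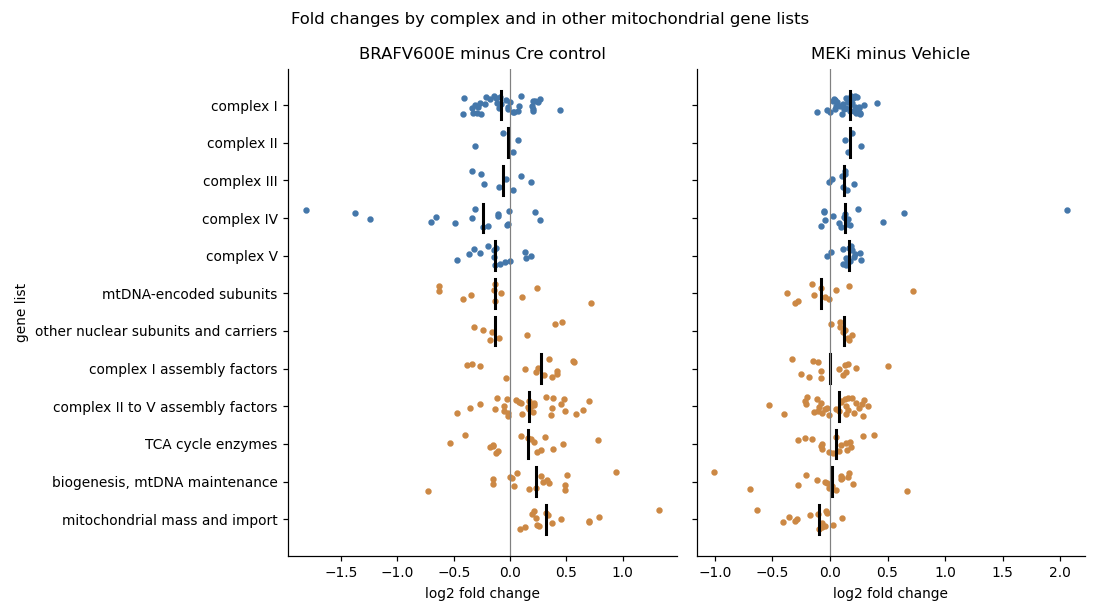
Log2 fold change (horizontal axis) of each tested gene by complex (blue) and in 7 lists of related mitochondrial genes (orange, vertical axis), with a black line at each median, for BRAFV600E minus Cre control (left) and MEKi minus Vehicle (right). On the left the medians run from -0.24 for complex IV to 0.32 for mitochondrial mass and import, and on the right those of the 5 complexes lie between 0.12 and 0.17.

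Markers of other cell types were read beside the isoforms typical of muscle and fat. Of 4 genes of brown fat or adipocytes, Cidea fell by 1.21 (SE 0.21, adjusted p = 0.0041) and Plin1 by 0.94 (SE 0.23, adjusted p = 0.0222, both limma) in BRAFV600E. Plin1 was not well above background on BRAFV600E replicates 2 and 5. With slide as a block and within slide 1, limma called 0 of the 3 tested. Adipoq differed by -2.59 (SE 1.22, adjusted p = 0.172, limma), and Ucp1, the defining protein of brown fat, was not well above background on any of the 20 arrays. Adipoq was not well above background on BRAFV600E replicates 1, 2 and 4 or on Vehicle replicates 2, 3 and 4. The summed level of the 4 genes, in units of the 75th percentile, was 0.395 to 2.62 in Cre control, 0.116 to 0.813 in BRAFV600E, 0.122 to 0.449 in Vehicle and 0.376 to 1.83 in MEKi. On Cre control replicate 4, Adipoq at a level of 1.20 made up most of the sum. Of 11 cardiac and skeletal muscle markers 8 were tested and limma called 0 in either comparison (1 higher and 1 lower at an unadjusted p below 0.05 in BRAFV600E, 1 higher in MEKi), with summed levels of 2.06 to 3.30 in Cre control, 2.45 to 4.51 in BRAFV600E, 0.954 to 2.76 in Vehicle and 2.06 to 3.41 in MEKi and a median log2 fold change of 0.07 in BRAFV600E and 0.35 in MEKi. Of 10 smooth muscle markers 2 rose, Des by 0.94 (SE 0.21, adjusted p = 0.0144) and Actg2 by 0.71 (SE 0.20, adjusted p = 0.0356, both limma), with summed levels of 148 to 226 and 128 to 274. With slide as a block 1 of the 10 was called higher. Within slide 1 limma called 0 of them, with 5 above 0 and 5 below. In MEKi limma called none of the 10, also at an unadjusted p below 0.05, while 9 were above 0 with a median of 0.66 and summed levels of 152 to 301 against 60.8 to 226 in Vehicle. The part of fat or muscle content in the values of Cox8b and Cox6a2 was not tested.

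Markers of the epithelium moved too, beside 1179 of all 19039 genes called higher and 1192 (6.26%) called lower in BRAFV600E. In BRAFV600E, 1 of 12 enterocyte markers rose (Alpi) and 1 fell (Mgam), while 11 of the 12 had values below 0, with a median of -0.42 over all arrays and -0.95 within slide 1. At an unadjusted p below 0.05, 5 enterocyte markers were lower and 1 was higher, and with slide as a block 4 were called lower and 1 higher. Their summed level was 1710 to 2980 in Cre control and 1050 to 2250 in BRAFV600E. Of the other epithelial markers, 1 of 7 goblet markers rose and 3 fell, 4 of 5 measured Paneth markers fell and 3 of 6 stem cell markers fell. Of 7 measured T lymphoid markers 3 fell, of 7 B lymphoid markers 1 fell, and of 4 tested testis markers limma called none. Within slide 1 limma called 3 goblet, 4 Paneth, 1 stem cell, 3 T lymphoid and 0 B lymphoid markers lower. None of these was called higher there, and 3.86% of all genes tested were called in either direction. In MEKi the only call among these lists was Ascl2, a stem cell factor, higher by 1.00 (SE 0.17, adjusted p = 0.0309, limma). The part of cell composition in the subunit values was not tested.

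Genes with several usable probes did not always speak with one voice. In the BRAFV600E comparison 31 of the 84 genes had more than 1 usable probe, and for 14 the probes differed in sign, among them Atp5a1 (-0.13 and 0.61), Ndufv1 (-0.09 and 0.67) and Ndufs1 (0.22 and -0.52). In the MEKi comparison this held for 5 of 32 genes. The first value of each pair comes from the brightest probe, which stands for its gene throughout. Cox8b, Cox6a2 and Cox7a1 were each read by 1 probe.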

How the data were processed

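Total RNA from intestinal tissue of 20 mice was labelled with Cy3 and hybridised to Agilent 1-colour arrays. The authors deposited scanner output of Agilent Feature Extraction 10.5.1.1, whose intensity (processed signal) is background-corrected and not scaled between arrays, and a value table in which all values matched it within 1%. Groups came from the labels. A treatment text on a statin matches none of the groups and was not used.

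Here, log2 intensity minus each array's 75th percentile was computed over spots that were not controls or outliers. Probes were named through RefSeq accessions, symbols or synonyms, 12271 of 56605 staying unnamed, and the probe of highest mean stood for its gene. A probe matching the name rule on 1 design version and named Gm6444 on the other was left out. Genes well above background on at least 6 of 12 or 4 of 8 arrays were tested with limma 3.58.1 (R 4.3.3), on the groups compared only, with Benjamini-Hochberg adjustment over all genes and a threshold of 0.05. Outlier spots were dropped (Ndufa6, Ndufb8 and Cox7a2l in BRAFV600E replicate 3, Ndufb9 in Vehicle replicate 1). The fit was tested on simulated data.

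Subunits named are those called, the highest and lowest of each complex in each comparison, and the isoforms, and from the other lists up to 4 called genes a list. The gene lists and members were chosen with earlier results of these data known, and mitochondrial DNA genes were found under their RefSeq names. The marker genes and the 3 further genes with probe values were added after their values were seen. Alternatives were another background correction, quantile, median or no scaling, other filters, the mean over probes, 1 fit of all groups, array weights, Y-linked signal as a covariate, slide, and leaving out each array. The number of arrays limits the precision.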

Additional observations from a re-analysis of the deposited data

Results flagged for a closer look

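Among the values of the named subunits and the medians of the complexes, examined in each of the 4 groups, 2 arrays lay far from the rest of their group. For Cox6a1, Vehicle replicate 4 measured 8.16, with the next array at 8.39. For Cox6a2, MEKi replicate 2 measured -3.19, with the next array at -2.50. About 1 in 20 groups is expected to show such an array by chance, and 128 group values were examined.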

How the results depend on the processing

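Of the alternatives for the BRAFV600E comparison, Cox8b was called in 20 of 23, losing its call without scaling between arrays, with slide as a block and within slide 1. It was not tested where every array had to be well above background. Cox6a2 was called in 8 of 24. Besides the slide and unscaled fits, it lost its call with quantile normalization (adjusted p = 0.0905) and median scaling (adjusted p = 0.11, both limma). The same held without the filter on dim probes (adjusted p = 0.0671) and with the Y-linked covariate (adjusted p = 0.0758, both limma). Among single-gene results under alternatives, 1420 stayed on the same side of the threshold or within the replicate spread, 121 lost the call, 28 gained one and 57 uncalled ones moved by more than that spread. Over all of these values the sign changed in 102, 23 of these without scaling and 41 in fits that left out 1 array, and in 10 the gene was called under at least 1 of the settings set side by side. Those 10 are as follows. Without scaling, Cox6a2 stood at 0.10, Cox7a2 at 0.70, Cox7a2l at 0.79, Cox8a at 0.80, Atp5g1 at 0.66, mt-Co2 at 0.18, mt-Nd3 at 0.39, Sucla2 at 0.28 and Ppargc1a at 0.082, and with the mean over probes Ssbp1 stood at -0.085. Against 2371 genes called in BRAFV600E, of which 49.7% were higher, normexp background correction called 4643 (34.2% higher), no scaling 9336 (98.1%), array weights 5174, slide as a block 1535 (30.2%) and slide 1 alone 734 (26.3%), and median scaling had 73.6% higher. Of the 84 genes, 52 were called without scaling, all higher, 1 without the filter on dim probes, 4 in 1 fit of all groups, 8 with array weights, 1 with Y-linked signal as a covariate and 1 within slide 1, against 2. Their median moved from -0.10 to 0.71 without scaling and to -0.47 with slide as a block and within slide 1, while the median of all genes moved to 0.79 without scaling. With normexp the median was -0.016 for the 84 and -0.13 for all genes, and with median scaling 0.025 and 0.11. Leaving out 1 array gave 1442 to 2863 genes (1527 without Cre control replicate 2 and 1442 without replicate 3), 1 to 5 of the 84, and medians from -0.17 to -0.02. In MEKi, against 380 genes, no scaling called 72, no filter 234, array weights 1420 and the Y-linked covariate 53, and of the 84, 1 was called in 1 fit of all groups (Cox8b, adjusted p = 0.0427) and 2 with array weights. Leaving out 1 array there gave 76 to 376 genes, 0 of the 84, and medians from 0.11 to 0.18. The cause of these changes was not tested. No paired analysis was possible because the labels carry no replicate numbers.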
